A study of Homo sapiens with 36 samples.

Results

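The chromatin-modifying enzymes described here are 43 genes whose products write, erase or maintain methyl groups on DNA and methyl and acetyl groups on histones. They were chosen by name and not by a cut on measured values, with earlier results of these data known. Of these, 42 were matched to a row of the count tables by Ensembl identifier, out of 63677 rows in all, and all 42 passed the filter on low counts that kept 19180 genes. UHRF1, which helps copy DNA methylation after replication, was not analysed here. RNA sequencing had been carried out on A549, an established human lung adenocarcinoma line, grown without cytokine or with the inflammatory cytokine IL-1β at 1 ng/ml. Cells were harvested after 6, 15 or 21 days with IL-1β, and others after 21 days with it followed by 6, 15 or 30 days without it. Untreated control cells were harvested at each of these 6 time points. Each of the 12 groups held 3 biological replicates, which gave 36 libraries, all from a single cell line. The p-values measure the spread between these replicates.

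DNA methyltransferases add methyl groups to cytosine, with DNMT1 copying existing marks and DNMT3A and DNMT3B placing new ones, while the TET dioxygenases start their removal. EZH2 methylates lysine 27 of histone H3 as the catalytic subunit of Polycomb repressive complex 2, and EHMT1, EHMT2, SUV39H1 and SUV39H2 methylate lysine 9, marks that accompany silent genes. Histone acetyltransferases such as EP300 and CREBBP place the acetyl marks of active promoters and enhancers, and histone deacetylases remove them. The study had followed such marks at the promoter of CDH1, the gene of the epithelial adhesion protein E-cadherin. It had also measured the expression of enzymes for these marks after IL-1β and found no target among them. HDAC9 was reported as increased there, but its knockdown did not restore E-cadherin. The comparison of treated with untreated cells here asks whether the enzyme transcripts changed in the RNA sequencing.

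The libraries held 9116032 to 23570026 counts on genes. CXCL8, an established IL-1β target, was higher at day 21 by 6.91 on the log2 scale (SE 0.41, edgeR quasi-likelihood adjusted p = 2.33e-11). CDH1 was lower at that day by −2.24 (SE 0.29, adjusted p = 7.15e-06 by the same test). These values check the treatment labels of day 21. At days 6 and 15 of exposure CXCL8 was higher by 7.1 and 5.9. After withdrawal it stood at 1.36, 0.02 and −0.97 and did not pass, so it cannot check the labels there. The epithelial keratins KRT8 and KRT18 had 265 to 4818 CPM in all libraries (counts scaled to a library size common to all libraries), while KRT19 stayed at or under 0.195 CPM and EPCAM at or under 1.62 CPM. The markers of fibroblasts summed to 0.969 to 3.87 CPM in control and 1.29 to 3.37 CPM in IL-1β libraries, those of leukocytes to 1.80 to 10.1 and 2.47 to 16.6 CPM, nearly all of it CD14, and the 2 measured endothelial markers to at most 0.348 CPM. Their part in the results was not tested, and in bulk RNA fewer cells expressing a gene and less of its RNA per cell cannot be told apart. The 5 epithelial markers summed to 2901 to 7624 CPM in control and 899 to 5142 CPM in IL-1β libraries. Mitochondrial genes held a high share of the counts, 11.8% to 24.6%, in 11 libraries (6 of control and 5 of IL-1β cells) and 5.61% to 7.75% in the other 25. These 11 libraries stood apart on the first principal component, which held 42.4% of the variance. Values of several, but not all, named genes that moved with them are therefore given also with these libraries left out. This left 2 or 3 libraries in each group during exposure, 2 in each at day 30 after withdrawal, and 2 of IL-1β beside 1 of control at days 6 and 15 after withdrawal, where the lone control is assumed to vary like the other groups.

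Of the 42 enzyme genes, 2 changed at an adjusted p under 0.05 in at least 1 of the 6 comparisons of IL-1β with control. HDAC9, a class IIa histone deacetylase, rose at day 15 and day 21 of exposure and at day 6 after withdrawal. TET1, which oxidizes methylated cytosine, fell at day 6 of exposure. The other 40 genes passed in none of the 6 comparisons, which makes 4 calls among 252 tests of a gene at a time point. At day 6, 1 of 42 enzyme genes was called, against 4.27% of all genes tested. At day 15 the count was 1 of 42 against a background of 6.43%, at day 21 it was 1 of 42 against 6.40%, and at day 6 after withdrawal it was 1 of 42 against 2.62%. At days 15 and 30 after withdrawal none was called by edgeR or by DESeq2, where 1.36% and 1.31% of all genes were, and at each of these times 2 of the 42 had an unadjusted p under 0.05 with either tool. All 4 calls also passed a fold change over 2, a criterion that 2.77%, 4.24%, 4.26% and 1.80% of all genes met in the same comparisons, taken in order of time. The unadjusted p was under 0.05 for 8.75% of all genes at day 15 and 8.35% at day 30 after withdrawal.

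**Figure D1:**
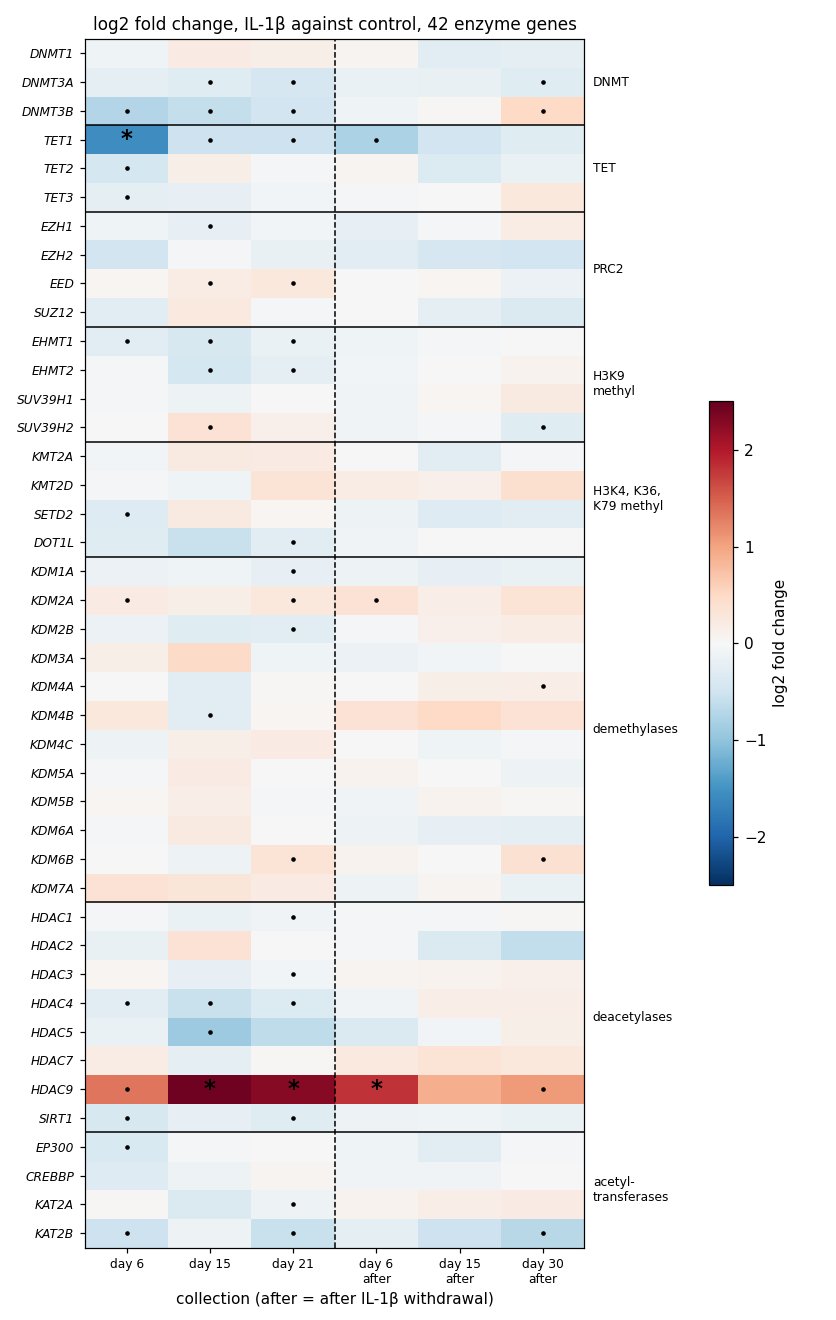
Log2 fold change of IL-1β against control (colour scale) for the 42 enzyme genes (rows, grouped by role) at the 6 collections (columns, with the dashed line at IL-1β withdrawal). Stars mark an adjusted p under 0.05 and dots mark other cells in which all 3 IL-1β replicates lay above or all 3 below the 3 controls; HDAC9 carries 3 of the 4 stars and TET1 the other.

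HDAC9 lies on chromosome 7 at 18126572 to 19042039 of GRCh37 (plus strand) and TET1 on chromosome 10 at 70320094 to 70454244 (plus strand), and the annotation shows no other gene over the exons of either. Their promoters are shown because they belong to the 2 genes that changed. RefSeq (GRCh38.p14) lists 5 start regions of 300 bases for HDAC9 and 3 for TET1, and the counts per gene do not tell which start was used. The HDAC9 regions below are the one farthest upstream and, of 4 internal ones, one picked after its sequence was seen. The internal one was picked because it holds the letters TGANTCA described next. The TET1 region is the one farthest upstream. Capitals mark CpG, the dinucleotide that DNA methyltransferases act on.
HDAC9 upstream, chr7:18086575-18086874, plus strand: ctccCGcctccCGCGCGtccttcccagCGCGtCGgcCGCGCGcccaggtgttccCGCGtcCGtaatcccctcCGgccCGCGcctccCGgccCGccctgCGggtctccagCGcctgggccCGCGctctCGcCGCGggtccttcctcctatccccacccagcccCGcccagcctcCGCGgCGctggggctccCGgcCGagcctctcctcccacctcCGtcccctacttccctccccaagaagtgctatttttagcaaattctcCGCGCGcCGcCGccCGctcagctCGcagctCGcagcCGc
HDAC9 internal, chr7:18495499-18495798, plus strand: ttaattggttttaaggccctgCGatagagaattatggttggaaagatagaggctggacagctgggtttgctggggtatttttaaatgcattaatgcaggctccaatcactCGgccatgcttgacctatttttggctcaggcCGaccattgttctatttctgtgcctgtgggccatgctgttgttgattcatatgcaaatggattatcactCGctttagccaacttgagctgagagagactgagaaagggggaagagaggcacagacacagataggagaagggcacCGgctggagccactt
TET1 upstream, chr10:68560087-68560386, plus strand: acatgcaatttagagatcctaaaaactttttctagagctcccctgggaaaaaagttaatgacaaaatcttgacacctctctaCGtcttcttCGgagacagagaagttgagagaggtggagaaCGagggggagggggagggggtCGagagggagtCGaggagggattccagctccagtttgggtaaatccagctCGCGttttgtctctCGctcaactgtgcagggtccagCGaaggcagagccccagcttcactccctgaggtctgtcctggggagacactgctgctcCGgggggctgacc

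The upstream HDAC9 region held 41 CpG dinucleotides and 75% G or C, the internal HDAC9 region 5 CpG, and the TET1 region 10 CpG, where the median of 35116 RefSeq promoter regions of the same length was 14. The letters TGANTCA, where N is any base, were searched on both strands. They are a loose form of the site of the IL-1β-responsive factor AP-1, which has C or G at N. The letters start at base 184 of the internal HDAC9 region, where they read TGATTCA, and are not in the other 2 regions shown. Of the 5 HDAC9 regions, 2 hold them, and these overlap each other. They occur in 5 of the 66 regions of enzyme genes (7.58%) and in 7.71% of the 35116. Such a match describes the sequence and does not show binding, and CpG methylation was not measured in these libraries.

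HDAC9 was the least abundant of the 42 genes in control cells per length, at 0.105 CPM per kilobase of merged exons, with TET1 next at 0.211, while HDAC1 was highest at 22.3, and these 3 ranks were the same per length of the canonical transcript. In control cells HDAC9 read 1.31, 1.57 and 1.71 CPM at day 6, and in IL-1β cells 3.66, 3.87 and 4.04 CPM. All 3 treated replicates lay above all controls at day 6, and the log2 fold change of 1.33 (SE 0.40) did not pass (edgeR quasi-likelihood adjusted p = 0.0604). At day 15 the controls read 1.66, 1.41 and 1.63 CPM and the IL-1β replicates 5.71, 6.80 and 13.04 CPM, the highest of which was a library of high mitochondrial share. The rise at day 15 was 2.42 on the log2 scale (SE 0.39), or 5.36-fold with a 95% interval of 3.09 to 9.32 (adjusted p = 0.000118).

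At day 21 HDAC9 stood at 2.96, 1.93 and 2.95 CPM in control and at 12.2, 13.7 and 12.5 CPM in IL-1β cells. The 3 treated values lay close together and far above the controls, and the rise was 2.28 on the log2 scale (SE 0.37), or 4.87-fold with an interval of 2.87 to 8.28 (edgeR quasi-likelihood adjusted p = 0.000158). These levels rested on 225, 183 and 305 reads in IL-1β cells against 52, 32 and 74 in control cells.

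At day 6 after removal of IL-1β, HDAC9 was still called, at 5.79, 9.51 and 4.69 CPM against 0.903, 3.54 and 1.16 CPM in control. The groups did not overlap, and the log2 fold change was 1.82 (SE 0.40, adjusted p = 0.00841 by the edgeR quasi-likelihood test). Without replicate 1 this call was lost (1.63, adjusted p = 0.554), as it was without replicate 3 (1.71, adjusted p = 0.0714), and with the libraries high in mitochondrial counts left out it was 2.19 (adjusted p = 0.0019), a value that rests on 1 control library against 2 of IL-1β. Over the 13 alternative analyses in which HDAC9 was tested, its adjusted p at that time ran from 4.71e-05 to 0.554 and its log2 fold change from 1.63 to 2.27. At day 15 after withdrawal, IL-1β replicates read 4.04, 6.18 and 1.86 CPM and controls 1.62, 2.86 and 1.93 CPM, so that the groups overlapped. The log2 fold change of 0.91 (SE 0.40) did not pass (edgeR quasi-likelihood adjusted p = 0.476). At day 30 after withdrawal the 3 treated values of 2.44, 2.99 and 2.06 CPM again lay above the control values of 1.02, 1.41 and 1.18 CPM, with a log2 fold change of 1.07 (SE 0.42) that did not pass (edgeR quasi-likelihood adjusted p = 0.372).

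The response of HDAC9 at day 30 after withdrawal was smaller than at day 21 by −1.22 on the log2 scale (SE 0.56), and this difference did not pass (edgeR quasi-likelihood adjusted p = 0.772). For this contrast 0 of the 42 genes passed and 3 had an unadjusted p under 0.05 (HDAC9, EED and DNMT3B), while 0.730% of all genes passed and 6.05% had an unadjusted p under 0.05. Its response at day 21 exceeded that at day 6 by 0.95 (SE 0.55), which did not pass either (adjusted p = 1 by edgeR), and 0 of the 42 genes passed for that contrast, with 1, TET1, at an unadjusted p under 0.05, where 0.0104% of all genes passed and 2.24% had an unadjusted p under 0.05. HDAC9 was also higher in the libraries of high mitochondrial share, by 0.66 on the log2 scale in a model that held group and mitochondrial share together. In that model its rise at day 15 and day 21 was 2.13 and 2.08, and at day 6 it passed, at 1.53 (edgeR quasi-likelihood adjusted p = 0.0011). Without the 11 libraries the values at day 6, day 15 and day 21 were 1.36, 1.99 and 2.24, and all 3 passed. The call at day 6 of exposure therefore depended on the analysis, and 8 of 13 alternatives made it.

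**Figure D2:**
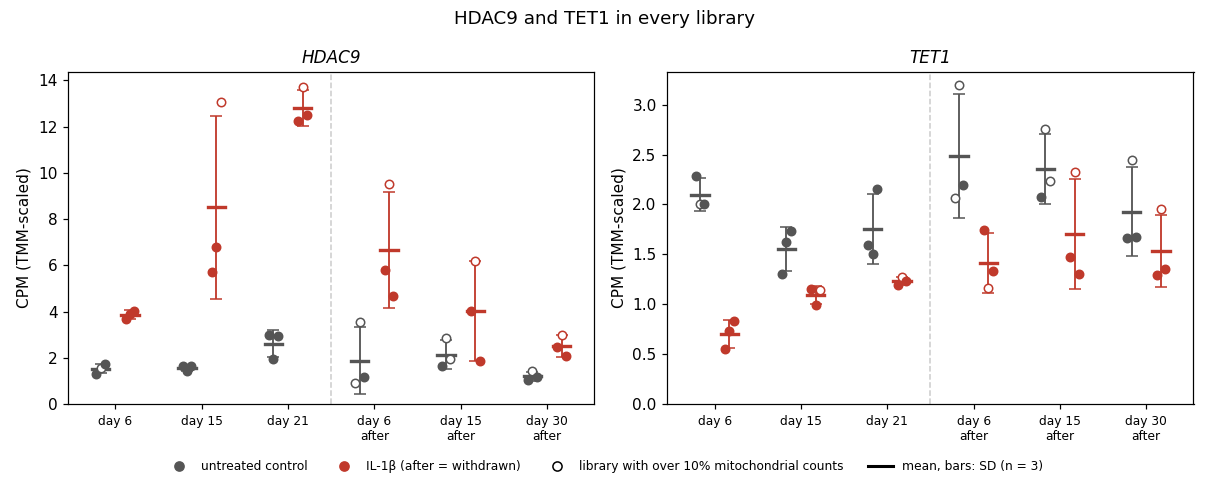
CPM of HDAC9 (left) and TET1 (right) in each of the 36 libraries at the 6 collections, with grey for control and red for IL-1β cells, open symbols for libraries with over 10% mitochondrial counts, and bars for the mean and SD of 3 replicates. HDAC9 reached 12.2 to 13.7 CPM at day 21 of exposure, and TET1 was at 0.552 to 0.828 CPM at day 6 against 2.00 to 2.29 CPM in control.

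TET1 was scarce, with 8 to 54 reads per library. At day 6 its controls read 2.29, 2.00 and 2.01 CPM and its IL-1β replicates 0.552, 0.731 and 0.828 CPM, which came from 8, 10 and 17 reads. The groups lay well apart, and TET1 fell by 1.55 on the log2 scale (SE 0.26), to 0.340 of the control level with an interval of 0.235 to 0.494 (edgeR quasi-likelihood adjusted p = 0.000194). Without replicate 1 the change was −1.33 and the call was lost (edgeR quasi-likelihood adjusted p = 0.125), while over the 13 alternatives the adjusted p ran from 1.88e-05 to 0.125. At day 15 the treated replicates read 1.15, 0.988 and 1.14 CPM against 1.30, 1.63 and 1.73 CPM, and at day 21 they read 1.19, 1.27 and 1.23 CPM against 1.59, 1.51 and 2.15 CPM. TET1 was thus below all controls at each day of exposure, with log2 fold changes of −0.51 at day 15 and −0.52 at day 21 that did not pass (edgeR quasi-likelihood adjusted p = 0.294 and 0.322). At day 6 after withdrawal it was again below all controls, at −0.79 (SE 0.25, adjusted p = 0.0948 by edgeR; −0.49 with the 1 control and 2 IL-1β libraries of low mitochondrial share), and at days 15 and 30 after withdrawal the groups overlapped. The difference between its responses at day 21 and day 6 was 1.04 (SE 0.36) and did not pass (edgeR quasi-likelihood adjusted p = 1).

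The other TET dioxygenases did not pass at any time. TET2 stood at −0.45 and TET3 at −0.22 on the log2 scale at day 6, where the 3 treated replicates of each lay below the 3 controls, and by day 21 they stood at −0.02 and −0.06.

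Among the DNA methyltransferases, DNMT3B had the lowest fold changes during exposure. Its controls read 15.2, 11.7 and 15.9 CPM at day 6 and its IL-1β replicates 7.45, 6.87 and 11.4 CPM. At day 15 they read 14.96, 13.98 and 11.9 against 10.5, 11.3 and 4.97 CPM, and at day 21 they read 14.8, 15.7 and 16.2 against 10.1, 12.8 and 10.5 CPM. The treated values lay below all controls at each of the 3 days, with log2 fold changes of −0.73, −0.59 and −0.49 that did not pass (edgeR quasi-likelihood adjusted p = 0.131, 0.214 and 0.436). Once the 11 libraries of high mitochondrial share were left out, DNMT3B passed at day 6 (−0.82, adjusted p = 0.00251) and at day 21 (−0.58, adjusted p = 0.0241), while at day 15 its value shrank to −0.31 (adjusted p = 0.293), the treated library at 4.97 CPM being one of those left out. Over 14 alternatives the adjusted p ran from 0.00251 to 1 at day 6, from 0.111 to 0.932 at day 15 and from 0.0241 to 1 at day 21. At days 6 and 15 after withdrawal its groups overlapped, and at day 30 after withdrawal the order was turned round, with treated replicates at 14.1, 15.6 and 18.9 CPM above controls at 13.3, 6.95 and 13.8 CPM (0.50, SE 0.25, adjusted p = 0.632 by edgeR). This value was 0.29 without the 11 libraries and 0.28 without replicate 2, and it passed in none of the 14 alternatives (lowest adjusted p = 0.176).

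DNMT1, the maintenance enzyme, was far more abundant, at 183 ± 12.4 CPM in control and 170 ± 38.1 CPM in IL-1β cells at day 6 and at 189 ± 12.4 and 209 ± 32.6 CPM at day 21 (mean ± SD, n = 3). Its groups overlapped at each of the 6 times, and its log2 fold changes lay between −0.27 and 0.20. At day 21 its 95% interval ran from −0.30 to 0.59, so that a doubling or halving lay outside it. DNMT3A, the other de novo enzyme, was at −0.42 (SE 0.20) at day 21, with treated replicates at 6.46, 5.69 and 8.29 CPM below controls at 9.74, 8.32 and 9.32 CPM. It was below all controls at day 15 and at day 30 after withdrawal as well, and did not pass at any time (edgeR quasi-likelihood adjusted p = 0.331 at day 21).

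The subunits of Polycomb repressive complex 2 did not pass at any time. EZH2 was at 67.9 ± 11.4 CPM in control and 48.8 ± 16.4 CPM in IL-1β cells at day 6, and at 74.3 ± 4.20 and 65.1 ± 12.5 CPM at day 21 (n = 3). Its log2 fold changes were all negative, from −0.05 at day 15 to −0.48 at day 30 after withdrawal, and its groups overlapped at each time. At day 30 after withdrawal the control library of high mitochondrial share read 120 CPM beside 66.1 and 61.6 CPM in the others, and EZH2 was higher by 0.55 in the libraries of high mitochondrial share. Without them its value at that time was −0.16. EED, a scaffold subunit, lay above all controls at days 15 and 21, at 0.18 and 0.26, while SUZ12 and EZH1, the second catalytic subunit, stayed within −0.36 and 0.25.

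Of the histone H3 lysine 9 methyltransferases, EHMT1 was below all controls at each day of exposure, at −0.27, −0.40 and −0.18 on the log2 scale. Its lowest adjusted p was 0.109 at day 15 by the edgeR quasi-likelihood test, and its value there was −0.22 without the libraries of high share. EHMT2, which acts with EHMT1, read 55.5, 54.7 and 53.8 CPM in IL-1β cells at day 21 against 63.9, 63.3 and 63.9 CPM in control, a narrow but complete separation at −0.22 (SE 0.30, adjusted p = 0.992 by edgeR). At day 15 its treated replicates read 62.3, 63.6 and 29.3 CPM, and the lowest was the library of high mitochondrial share, a kind in which EHMT2 was lower by −0.62 across the series. Its value at day 15 went from −0.44 to −0.16 without them. SUV39H1 ranged from −0.13 to 0.23 and its groups overlapped at each time. Of its exons, 21.2% lie over a gene on the other strand, and since the strand setting of the counting is not given in the sources used here, its counts are less certain. SUV39H2 was above all controls at day 15 (0.36, SE 0.21) and below them at day 30 after withdrawal (−0.31, SE 0.21; −0.13 without the libraries of high share), and neither passed.

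The methyltransferases of lysines 4, 36 and 79 held no call. KMT2A and KMT2D, which methylate lysine 4 at enhancers and promoters, ranged from −0.27 to 0.39, SETD2, which methylates lysine 36, from −0.32 to 0.22, and DOT1L, the lysine 79 enzyme, from −0.55 to −0.01. The lowest DOT1L value, at day 15, was −0.24 without the libraries of high share, and the highest KMT2D value, at day 30 after withdrawal, went from 0.39 to 0.07. The 12 histone demethylases lay between −0.31 and 0.50 over the 6 comparisons, with medians between −0.02 and 0.15. The highest value, of KDM4B at day 15 after withdrawal, was 0.12 without the libraries of high share, with 1 control library left. KDM3A, which removes methyl groups from lysine 9, had the lowest adjusted p of these during exposure (0.48 at day 15, SE 0.18, adjusted p = 0.128 by the edgeR quasi-likelihood test), but this value was 0.09 without replicate 3, whose treated library is of high mitochondrial share, and 0.24 without all such libraries. KDM6B, a lysine 27 demethylase known to be induced in inflammation, was at −0.01, −0.13 and 0.33 at days 6, 15 and 21, and its treated replicates lay above all controls at day 21. KDM2A, KDM2B, KDM4A, KDM4B, KDM4C, KDM5A, KDM5B, KDM6A, KDM7A and KDM1A, which is also called LSD1, passed at no time.

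Of the 4 class IIa deacetylases, a family whose members shuttle between nucleus and cytoplasm, HDAC9 alone passed in any of the 6 comparisons, and the difference between the relatives was not tested. At day 21 HDAC4 was at −0.34, HDAC5 at −0.63 and HDAC7 at 0.04, beside 2.28 for HDAC9. Without the libraries of high share these values were −0.28, −0.43 and 0.19, beside 2.24. HDAC4 read 35.5, 29.4 and 29.4 CPM against 43.3, 39.0 and 36.96 CPM in control at day 21, and it was below all controls at the 3 days of exposure, with its lowest adjusted p of 0.205 at day 15 (−0.55, SE 0.23, by edgeR; −0.30 without the libraries of high share). HDAC5 spread widely between replicates, from 17.1 to 34.2 CPM in IL-1β cells at day 21, and 23.97% of its exons lie over G6PC3 on the other strand. The class I deacetylases HDAC1, HDAC2 and HDAC3 did not pass at any time. HDAC1 was held between −0.17 and 0.02, with a 95% interval at day 21 of −0.41 to 0.24, and HDAC3 between −0.21 and 0.13. HDAC2 reached −0.62 at day 30 after withdrawal (SE 0.32), where the control library of high mitochondrial share read 283 CPM and the other 2 controls 105 CPM each. Without replicate 2, which holds that library, the value was −0.03, and without all libraries of high share it was −0.02. SIRT1, an NAD-dependent deacetylase, was below all controls at days 6 and 21, at −0.39 and −0.31.

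Of the acetyltransferases, KAT2B was below all controls at day 6, at day 21 and at day 30 after withdrawal. At day 21 its treated replicates read 25.6, 28.3 and 25.2 CPM against 37.95, 38.4 and 39.95 CPM in control. The groups were tight, but the log2 fold change of −0.56 (SE 0.24) did not pass in the joint model (edgeR quasi-likelihood adjusted p = 0.259). KAT2B was higher by 0.47 in the libraries of high mitochondrial share, and without them it passed at days 6, 15 and 21, at −0.46, −0.47 and −0.59 (edgeR quasi-likelihood adjusted p = 0.0133, 0.00938 and 0.00139). The value at day 15 was −0.13 with all libraries (edgeR adjusted p = 0.799) and turned to 0.03 and 0.06 without replicates 1 and 2. With mitochondrial share as a term in place of leaving libraries out, KAT2B passed at day 21 and not at days 6 and 15 (edgeR adjusted p = 0.189 and 0.24). Over 14 alternatives its adjusted p ran from 0.0133 to 0.87, from 0.00938 to 0.965 and from 0.00132 to 0.85 at these 3 times. At day 30 after withdrawal KAT2B was at −0.70 (SE 0.24) and did not pass (edgeR quasi-likelihood adjusted p = 0.234). Without the libraries of high share it was at −0.49 (edgeR adjusted p = 0.05855), with 2 libraries left in each group. It passed in 2 of 14 alternatives, those with mitochondrial share as a term (lowest edgeR adjusted p = 0.00578). EP300 was at −0.38 at day 6 (−0.23 without the libraries of high share) and −0.00 at day 21, and CREBBP ranged from −0.32 to 0.07. KAT2A, of whose exons 10.7% overlap another gene on the same strand, ranged from −0.36 to 0.20. Its lowest value, at day 15, was −0.07 without the libraries of high share, and its highest, at day 30 after withdrawal, was −0.02.

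**Figure D3:**
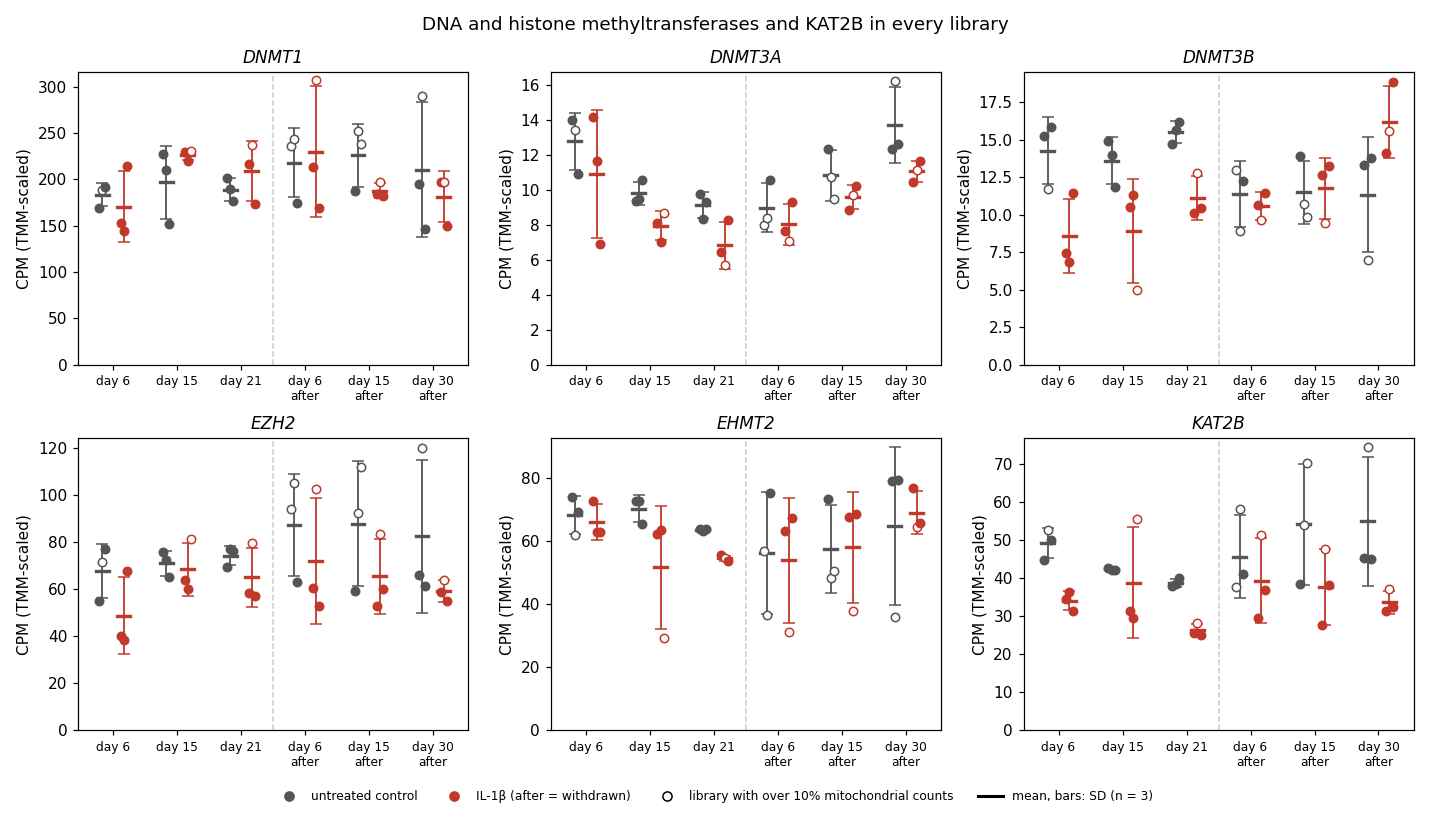
CPM in each library for DNMT1, DNMT3A, DNMT3B, EZH2, EHMT2 and KAT2B, with symbols as in the plot of HDAC9 and TET1 and bars for mean and SD (n = 3). DNMT3B and KAT2B lay below their controls at day 21 (10.1 to 12.8 against 14.8 to 16.2 CPM and 25.2 to 28.3 against 37.95 to 39.95 CPM), and open symbols stand away from the filled ones for EZH2, EHMT2 and KAT2B.

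During exposure the enzyme genes lay below control without overlap more often than above it. At day 21, 14 of the 42 (33.3%) had all 3 treated replicates below all 3 controls, where 15.2% of all genes tested did, and 4 had them above, where 13.8% did. At day 6 the counts were 10 below and 2 above, with backgrounds of 11.2% and 10.6%, and at day 15 they were 9 below and 3 above, with backgrounds of 13.9% and 11.5%. The genes share libraries and are not independent, and no test was made of these counts. DNMT3B, TET1, EHMT1 and HDAC4 were below control in this way at all 3 days, which 3.82% of all genes were, and HDAC9 was above control at all 3, which 3.72% were. At day 6 after withdrawal the counts fell back to 1 below and 2 above (backgrounds 5.24% and 5.51%), at day 15 after withdrawal to 0 below and 0 above (4.90% and 6.02%), and at day 30 after withdrawal they were 3 below and 4 above (5.11% and 6.78%). The median log2 fold change of the 42 genes in the exposure comparisons was −0.10, −0.13 and −0.03, and over all genes the median was −0.02, −0.02 and −0.01. After withdrawal the medians were −0.07, −0.04 and −0.01, beside −0.00, 0.02 and −0.00 over all genes.

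For most enzyme genes the intervals covered small changes. Of the 42, 33 stayed within a log2 fold change of 0.5 in either direction at all 6 times, and 40 within 1. The 95% interval lay within a doubling and a halving for 36, 33 and 37 genes at days 6, 15 and 21, and for 37, 37 and 34 at days 6, 15 and 30 after withdrawal. The median standard error of a log2 fold change was 0.21, so that changes well under 2-fold were not detectable for many of them in the joint model. In control cells alone, no enzyme gene differed between the last and the first collection at an adjusted p under 0.05 by edgeR. Of all 19180 genes tested, 0 were higher and 2 lower by that measure, so scarcely any gene passed. At an unadjusted p under 0.05, 0 enzyme genes differed, where 1.94% of all genes did.

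**Figure D4:**
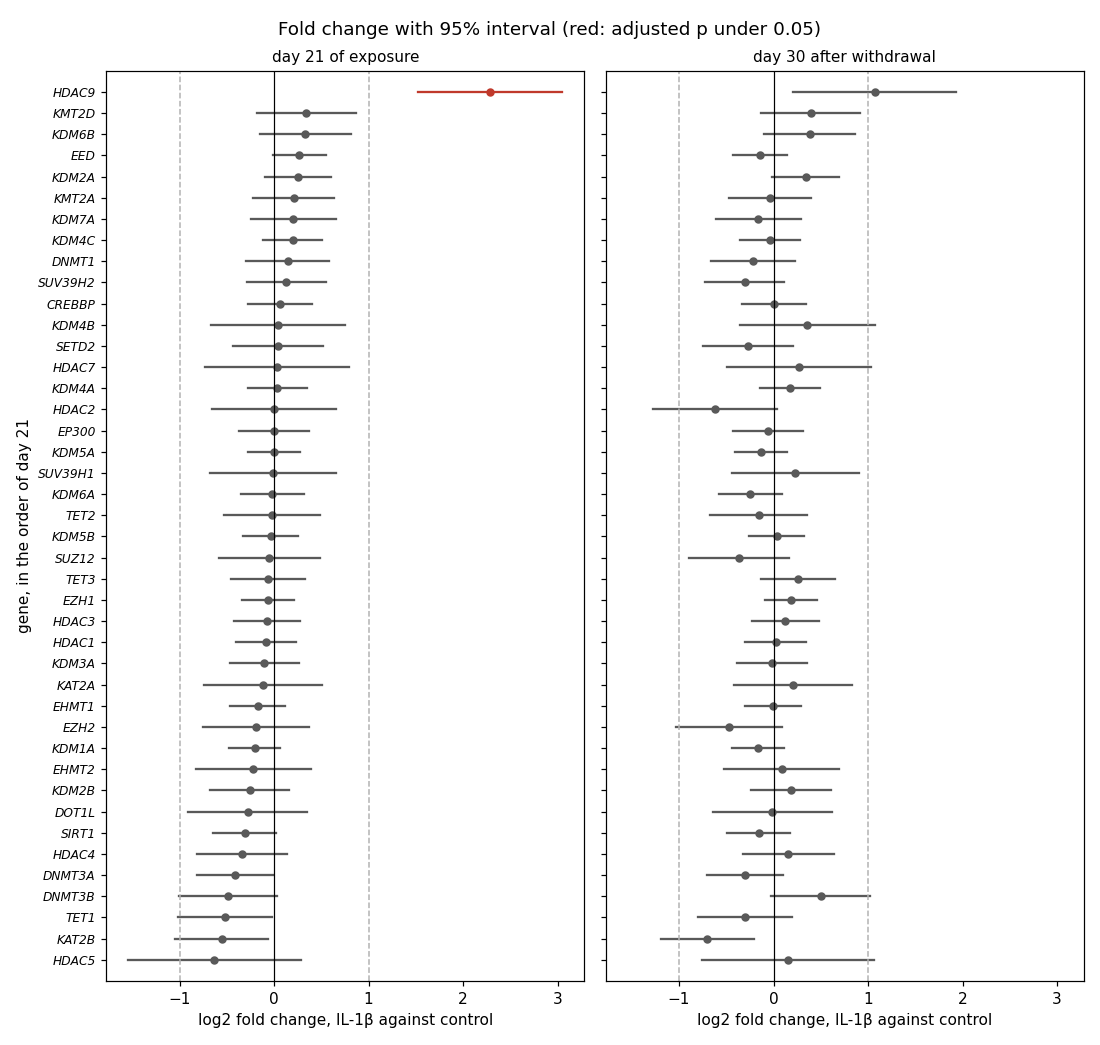
Log2 fold change of IL-1β against control (points) with 95% interval (lines) for the 42 genes at day 21 of exposure (left) and at day 30 after withdrawal (right), in the order of day 21, with dashed lines at a doubling and a halving. HDAC9 (red) lies at 2.28 at day 21, and 37 and 34 genes have their whole interval between the dashed lines.

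More enzyme genes differed with the mitochondrial share of a library than with IL-1β, and so did more of all genes tested. The first comparison set 11 libraries against 25 and each IL-1β comparison 3 against 3, so the counts come from tests of unlike power. In the model that held both, 34 of the 42 differed between libraries of high and low mitochondrial share at an adjusted p under 0.05 (17 higher and 17 lower), where 65.1% of all genes tested did. HDAC5, HDAC7 and KDM4B were lower by −0.84, −0.83 and −0.81 in the libraries of high share, and HDAC2, HDAC9 and EZH2 were higher by 0.70, 0.66 and 0.55. Across the 42 genes, which share these libraries, the difference went with the GC content of the canonical transcript (37.8% to 63.2%; Pearson's r = −0.825, Spearman's rho = −0.774), genes rich in G and C being lower. With mitochondrial share as a term, the median standard error of the day 21 fold changes was 0.16 in place of 0.21, and 3, 1 and 2 enzyme genes passed in the 3 exposure comparisons and 1, 0 and 1 in the 3 after withdrawal (KAT2B in the last), where 7.74%, 9.25%, 10.5%, 5.42%, 2.55% and 3.38% of all genes did. Without the 11 libraries, 4, 3 and 3 passed in the exposure comparisons and 1, 0 and 0 after withdrawal, the first 2 of these with 1 control library each, where 7.84%, 10.6%, 11.4%, 3.08%, 0.143% and 1.22% of all genes did. Those genes were HDAC9, TET1, DNMT3B and KAT2B, and at day 15 SIRT1 at −0.42, which was −0.20 with all libraries.

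**Figure D5:**
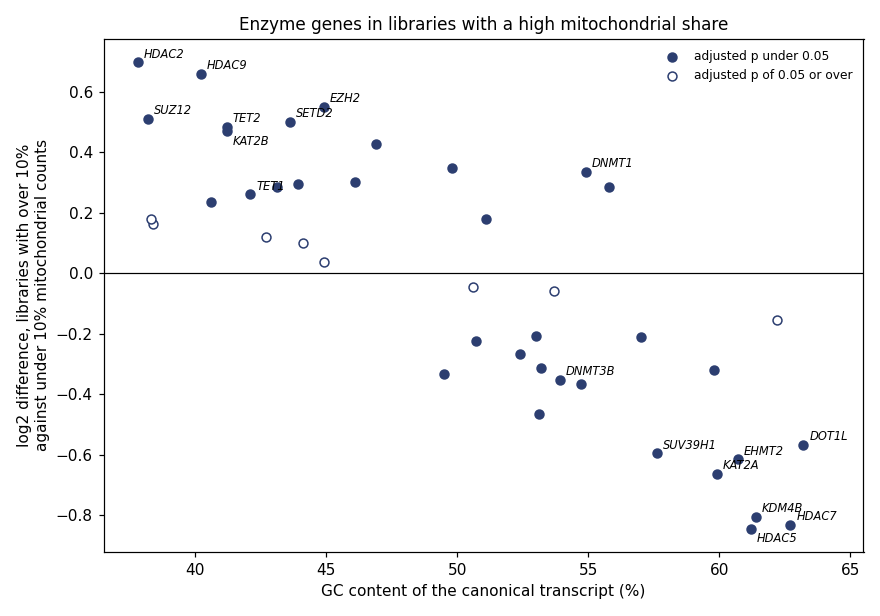
Log2 difference between libraries with over 10% and under 10% mitochondrial counts (vertical axis) against the GC content of the canonical transcript in percent (horizontal axis) for the 42 genes, filled where the adjusted p was under 0.05. HDAC2 at 0.70 and HDAC5 at −0.84 stand at the ends, and r over the 42 genes is −0.825.

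Other genes of chromatin regulation were scarcely different. Of 80 further readers, writers, erasers and complex subunits that passed the filter, none was called at day 6 or after withdrawal by edgeR. At day 15, 2 rose, and at day 21, 1 rose and 1 fell. Over all genes 4.27%, 6.43% and 6.40% were called at days 6, 15 and 21, and 2.62%, 1.36% and 1.31% after withdrawal. An unadjusted p under 0.05 was held by 4 of the 80 at day 6 and by 3 at each time after withdrawal. Of all 19180 genes, 1128 were higher and 1134 lower by this measure at day 6, and 1007 and 833 at day 6 after withdrawal. At days 15 and 30 after withdrawal the shares were 8.75% and 8.35%. BMI1, a subunit of Polycomb repressive complex 1, rose by 0.87 at day 15 (edgeR quasi-likelihood adjusted p = 0.0132). JARID2, which recruits Polycomb repressive complex 2, rose by 0.47 at day 15 and 0.54 at day 21 (edgeR adjusted p = 0.0254 and 0.00757). NCOA3, a nuclear receptor coactivator, fell by 0.75 at day 21 (edgeR adjusted p = 0.0124). It stood at −0.42 to −0.58 at the other times, where it was not called. For BMI1, JARID2 and NCOA3, values without the libraries of high mitochondrial share are not given here. Of 20 genes of proliferation, PCNA, the replication clamp, fell by 0.43 at day 6 and 0.41 at day 21 and none rose. Below control without overlap lay 0, 2 and 10 of these 20 at days 6, 15 and 21, beside 11.2%, 13.9% and 15.2% of all genes, and 13, 16 and 14 of the 80 chromatin genes, of which 4, 8 and 6 lay above. DNMT1, EZH2 and SUV39H1 are known to follow the cell cycle, and the part of proliferation in their levels was not tested.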

How the data were processed

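Poly(A) RNA libraries (KAPA Stranded mRNA-Seq) of 36 A549 samples were sequenced as single-end reads. Per the labels and the study's methods, the authors aligned reads to GRCh37 with TopHat2 2.0.14 and Bowtie2 2.2.5 and deposited raw counts per Ensembl gene made with HTSeq 0.6.1, without normalization. The strand setting and annotation release are not given in the sources used here. Reads on no gene (8.48% to 18.6%) and ambiguous reads (2.62% to 4.18%) were left out.

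Genes were matched by identifier to GENCODE v44lift37. The members and gene lists were chosen with earlier results of these data known. Named were all members that passed in a comparison, the members the study had measured by qPCR, and others chosen after their values were seen. Counts were filtered with filterByExpr, scaled by TMM and fitted with the edgeR 4.0.16 quasi-likelihood model (R 4.3.3) to 12 groups with 24 residual degrees of freedom, as the study used edgeR. A Benjamini-Hochberg adjustment over 19180 genes was applied to the p-values, called under 0.05. Intervals are 95% from the fitted standard errors. Alternatives included DESeq2 1.42.0, other scalings and filters, a replicate block, leaving out each replicate, and the mitochondrial share as a term or with its 11 libraries left out. The code was tested on simulated data. Figures were drawn with matplotlib 3.10.9.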

Additional observations from a re-analysis of the deposited data

Results flagged for a closer look

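The IL-1β replicates of DNMT3B lay on opposite sides of control at different times, all 3 below it at days 6, 15 and 21 and all 3 above it at day 30 after withdrawal, although with all libraries DNMT3B passed at none of these times. Its response at day 30 after withdrawal on the log2 scale was greater by 1.23 (SE 0.36) than at day 6, by 1.09 (SE 0.36) than at day 15 and by 0.98 (SE 0.36) than at day 21. By the edgeR quasi-likelihood test none of these differences passed (unadjusted p = 0.00203, 0.00526 and 0.0106, adjusted p = 0.207, 0.21 and 0.407). The lowest control value of DNMT3B at day 30 after withdrawal, 6.95 CPM, was in the library of high mitochondrial share. With all 11 such libraries left out, the 3 differences were 1.11, 0.61 and 0.87, of which the one from day 6 passed (edgeR quasi-likelihood adjusted p = 0.0246, 0.399 and 0.095), with 2 libraries in each group at day 30 after withdrawal.

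SUV39H2 lay above control in all 3 replicates at day 15 and below it in all 3 at day 30 after withdrawal, a difference of −0.66 (SE 0.29) that did not pass (edgeR quasi-likelihood adjusted p = 0.347) and was −0.42 without those libraries. The contrasts of day 30 after withdrawal against days 6 and 15 were chosen after the data were seen.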

How the results depend on the processing

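The number of enzyme genes at an adjusted p under 0.05 was 1 at days 6, 15 and 21 and at day 6 after withdrawal, and 0 later. At day 6 it was 2 with total counts only, the DESeq2 Wald test, the likelihood ratio test, a separate fit of each time point and the replicate block, where HDAC9 joined TET1, 3 with mitochondrial share as a term, with or without the block, and 4 once the libraries of high share were left out. With a fold change over 2 as well it was 2 in each of these. Over all genes at day 6, by adjusted p alone, total counts only called 690 of 19180. The DESeq2 Wald test called 995, the likelihood ratio test 958 and the replicate block 973, against 819 in the main model. The separate fit called 889 of 16698. The mitochondrial term called 1484 of 19180 without the block and 1496 with it. Leaving out the libraries of high share gave 1587 of 20248. At day 15 the number of enzyme genes was 3 without those libraries, where 2152 of all 20248 genes were called. At day 21 it was 2 with total counts only and with mitochondrial share as a term, and 3 with a separate fit, without those libraries and with the term and the block together (a combination chosen after seeing the data), the additions being KAT2B, DNMT3B and SIRT1, all under 2-fold. Over all genes at day 21, total counts only called 1006 of 19180, against 1228 in the main model. The mitochondrial term called 2010 without the block and 2062 with it. The separate fit called 2308 of 17309, and leaving out the libraries of high share gave 2314 of 20248. At day 30 after withdrawal the number of enzyme genes was 1 (KAT2B) with the mitochondrial term, without or with the block. There 648 and 743 of all 19180 genes were called. With at least 10 counts in every sample the number was 0 throughout, because HDAC9 and TET1 were then not tested. At day 6 after withdrawal it was 0 with a separate fit, which called 1 of all 16637 genes it tested. Leaving out one replicate gave 0 to 1 enzyme genes at day 6 and at day 6 after withdrawal at either threshold. The calls lost were TET1 without replicate 1 and HDAC9 without replicate 1 or 3. Calls over all genes fell as well. At day 6 they were 190 of 19205, 422 of 19474 and 547 of 18896 without replicates 1, 2 and 3, against 819 of 19180. At day 6 after withdrawal they were 29, 182 and 401, against 502. The counts of enzyme genes whose response differed between day 21 and day 6, or between day 30 after withdrawal and day 21, were 0 in all analyses.

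Of 44 fold changes followed, the largest of each gene and the other called ones, 5 turned direction under an alternative, none of them called. Once the 11 libraries were left out, HDAC3 and KDM5B at day 15 were 0.0111 and −0.00969 and SUV39H1 at day 30 after withdrawal was −0.0704. Leaving out one replicate gave −0.456 to 0.104 for KDM4A at day 15 (turned without replicate 3), −0.0068 to 0.503 for HDAC7 at day 15 after withdrawal (turned without replicate 3) and −0.0798 to 0.432 for SUV39H1 (turned without replicate 2).

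The correlation of same-numbered replicates, taken over genes on deviations from the group means, ran from −0.336 to 0.718 over 18 pairs. It was over 0.1 in all 3 pairs only at day 21 and at day 30 after withdrawal. At days 6 and 15 after withdrawal it reached 0.718 and 0.643, and its source was not tested. The main model did not take the numbers as pairs. With the replicate block HDAC9 passed at day 6 (1.33, edgeR adjusted p = 0.0389) and no other call changed. Scaling by total counts moved the median of all genes by up to 0.19, at day 15 after withdrawal. HDAC9 and TET1 rest on few reads (7 to 305 and 8 to 54 per library), which limits the precision of their values.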
